A study of Mus musculus with 6 samples.

Results

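The stretch described here was chromosome 4 of the mouse genome below 59 Mb, chosen as every row of the m6A table on that chromosome with a position under that limit. It held 9029 of the 567667 rows of the table, and the choice used no m6A value. The last position below the limit, 58984828, averaged 3.01% m6A and the first one beyond it, 59003260, averaged 0.298%. Below the limit, 93.8% of the positions fell on an exonic adenosine of the m6A motif in GENCODE M21 genes on the GRCm38 build. Letters outside exons were not checked. On this ground the positions were placed in genes, exons and transcript regions, which was not done for the remaining rows.

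N6-methyladenosine, m6A, is a methyl mark that the METTL3-METTL14 writer complex puts on adenosines of nuclear mRNA, within the motif DRACH, in which D is any base but C, R is a purine, H is any base but G, and the central adenosine is methylated. Proteins bound around splice junctions keep the writer away from nearby adenosines, so the mark is known to gather in long internal exons, in last exons and around stop codons. Reader proteins that bind the mark influence the decay, export and translation of the mRNA. The methyl group comes from S-adenosylmethionine, whose supply rests on the methionine cycle and one-carbon metabolism.

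The study compared HCC-initiating cells, HCICs, that is, hepatocyte-derived cells cultured from livers of male mice given the carcinogen diethylnitrosamine, with and without Mthfd1l, the mitochondrial one-carbon enzyme that produces formate. The 3 MTH-D samples (labelled Mthfd1l knockout) were single-cell colonies made with lentiviral Cas9 and guides to Mthfd1l, and the 3 MTH-WT samples were colonies that had received the empty vector, so both groups expressed Cas9 and came through puromycin selection. The cell lines derived from a control (CTL) mouse and from mice with double knock-in (DKI) mutations of Mdm2 and Mdmx, a line per mouse, and an MTH-D line named HCIC-2 carried only a very small deletion. The labels do not say which of the numbers 1 to 3 is which line. Nanopore direct RNA sequencing, which reads RNA molecules themselves, was run for at most 72 h with 1000 ng of input RNA and a flow cell per sample, and all 6 carried the same batch label. No expression value accompanies the table and Mthfd1l lies on another chromosome, so neither the knockout nor the hepatocyte origin of the cells was checked on these rows. The labels do not say that same-group samples were separate cultures, so the p-values below measure only the spread between these samples.

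The deposited value was the fraction of m6A at a position in a sample, given here as percent, with no coverage, so depth is unknown and no counting interval was computed. A value of exactly 0 was given to between 32.4% (MTH-D sample numbered 3) and 42.9% (MTH-WT sample numbered 2) of the positions of the stretch, and 68.7% of the positions had at least 1 value of exactly 0 or 100%. Levels were alike between samples, with Pearson r between 0.963 and 0.976 over all positions, a description across positions of one table. At positions averaging at least 10% m6A, the median SD between same-group samples was 5.25 points in MTH-WT and 5.72 points in MTH-D.

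Of the 9029 positions, 8574 lay on an adenosine in an exon of a single gene, and 8378 of these were the central A of a DRACH motif. A total of 195 positions were intergenic, 145 intronic, 91 in exons of several genes and 24 on an exonic letter other than A. On 1 transcript a gene (the one with the longest coding sequence), 4206 positions fell in coding sequence, 3755 in 3′UTR and 151 in 5′UTR, while 413 lay only in exons of other isoforms. The positions belonged to 174 genes, of which 146 held at least 20 positions, with a median of 80.04% of the DRACH adenosines of their transcript listed. The share differed between genes, such as 28.1% in Abca1, 29.9% in Casp8ap2, 33.6% in Zfp462 and 100% in Topors. A gene mean below is therefore a mean over its listed positions, not over its whole transcript. The rule by which a position came to be listed is not given in the sources used here, so the absence of a gene says nothing about its m6A.

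Most positions were barely methylated and a small share was methylated almost fully. A mean under 2% was found at 68.5% of the positions, 2 to 10% at 17.98%, 10 to 40% at 8.42%, 40 to 80% at 3.60% and 80% or more at 1.53%, which were 138 positions. The 1223 positions averaging at least 10% are called methylated positions below, and their mean over the 6 samples was 39.0%. The windows that follow show, among exonic adenosines in DRACH, the most methylated position of each of the 10 genes that had the highest ones, as 21 bases of the GRCm38 genome in the sense of the mRNA (T for U), with the DRACH motif in capitals. They show which motifs and transcript regions carried near-complete methylation.

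Zbtb5, coding sequence, chr4:44994078-44994098, minus strand: accaccagTGACTgtaggctc
Faxc, 3′UTR, chr4:21993705-21993725, plus strand: tgctaactGGACTataagccg
Tesk1, coding sequence, chr4:43447012-43447032, plus strand: gagaggatGGACTgcgagggc
Plekhf2, 3′UTR, chr4:10990555-10990575, minus strand: tatttaatTGACTgcctgaga
Pdp1, coding sequence, chr4:11961666-11961686, minus strand: gccccatgAGACTttgctaga
Pnrc1, 3′UTR, chr4:33246005-33246025, minus strand: agacctttGGACTcgaaagga
Fam110b, coding sequence, chr4:5799529-5799549, plus strand: cagtctcaGGACAgtaacagt
Manea, coding sequence, chr4:26327775-26327795, minus strand: ccccaaaaGAACTgctaacac
Zfp462, 3′UTR, chr4:55081184-55081204, plus strand: accctctcGGACAgtgtgtgg
Rbm12b2, coding sequence, chr4:12095159-12095179, plus strand: actgatgaGGACTttaggcgg

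The position in Zbtb5, a BTB zinc finger transcription factor, read 100% in all 6 samples. It carried TGACT, and it lay at -715 relative to the last coding base, in the last of 2 exons. The GGACT of Faxc read 96.7%, 100% and 100% in MTH-WT and 100% in each MTH-D sample. The GGACT of Tesk1, a kinase that acts on cofilin, ran from 98.7% to 99.5% over the 6 samples. The TGACT of Plekhf2, an endosomal protein, ran from 98.5% to 100%, and the GGACT of Pnrc1, a coactivator of nuclear receptors, from 96.7% to 98.2%. They lay 29 and 52 bases past the last coding base. The AGACT of Pdp1, the phosphatase that activates pyruvate dehydrogenase, ran from 97% to 99.3%. All 10 positions were in the last exon and over 400 bases from the nearest splice junction. Only in Plekhf2 did the groups not overlap, with the MTH-D samples between 98.5% and 98.67% and the MTH-WT samples from 98.73% upwards. The gap was narrow and close to 100% (unadjusted p = 0.220, limma on log2 odds). Over all rows of the table averaging at least 10%, groups did not overlap at 3.38% with MTH-D lower and at 2.07% with MTH-D higher.

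Methylated positions lay mostly far from splice junctions. Positions over 100 bases from every junction averaged 9.27%, 10.3% and 8.98% in MTH-WT and 8.82%, 10.6% and 8.58% in MTH-D. Positions within 100 bases averaged 2.10%, 2.04% and 1.79% in MTH-WT and 1.82%, 2.13% and 1.79% in MTH-D. The difference was 7.48 points ± 0.703 (SD, n = 6), a ratio of means of 4.85, and it was positive in 6 of 6 samples (two-sided exact sign-flip test over the samples, p = 0.03125, the smallest that 6 samples allow, also after Benjamini-Hochberg adjustment over the 4 such contrasts). The 4994 far positions held 1001 methylated ones, 20.04%, against 102 of the 3167 near ones, 3.22%. Near positions were 38.8% of the placed positions but 9.25% of the methylated ones.

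In coding sequence the level rose in steps with distance. It was 0.954% within 25 bases of a junction, 1.38% up to 50 bases, 3.73% up to 100 bases, 12.6% up to 150 bases and 23.2% up to 200 bases. Beyond 200 bases it moved between 20.1% and 26.1%. The lowest and the highest of the 6 samples were 0.848% and 1.10% in the nearest class and 21.1% and 25.3% in the class up to 200 bases, so the samples of these classes did not overlap. In 3′UTR the level reached 13.8% between 300 and 400 bases and was 4.07% beyond 800 bases, where most 3′UTR positions (2376) lay.

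**Figure D1:**
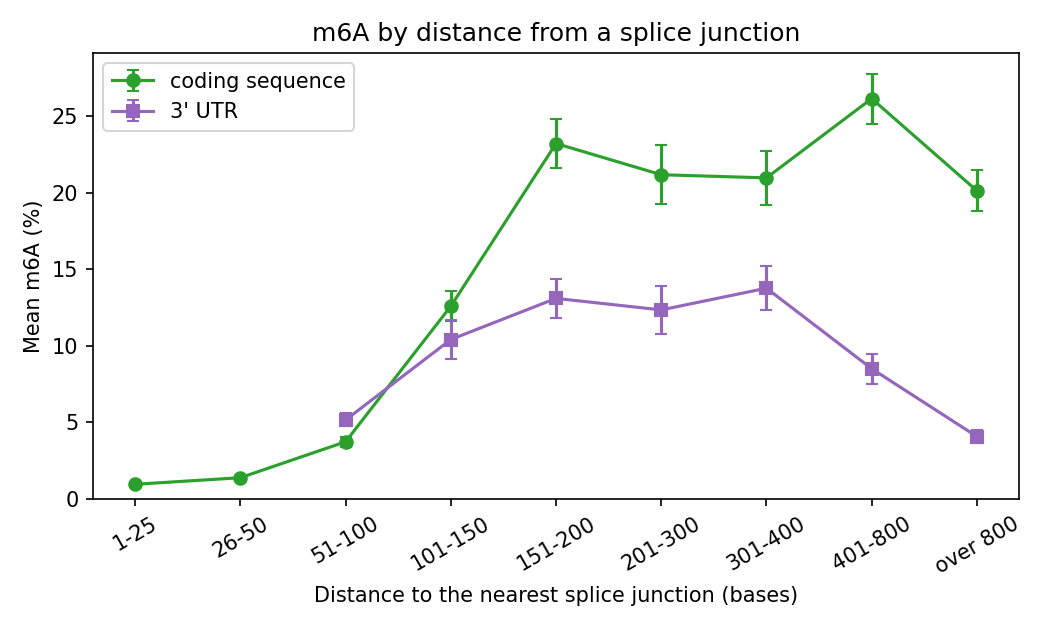
Mean m6A in percent (vertical axis) of coding and 3′UTR positions of the stretch by class of distance to the nearest splice junction in bases (horizontal axis, classes of unequal width). Points are means of the 6 samples and bars the SD between samples; the coding line climbs from 0.954% within 25 bases to 23.2% between 150 and 200 bases and stays high, and the 3′UTR line falls to 4.07% beyond 800 bases.

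Exon length followed the same order. Positions of internal coding exons of up to 150 bases averaged 0.788%, and 5 of 1593 were methylated. Those of exons of over 150 to 300 bases averaged 1.69%, with 27 of 985 methylated. In exons of over 300 to 600 bases the mean was 16.2% with 76 of 213 positions methylated, and in longer ones 17.4% with 118 of 327. The sample means ran from 0.711% to 0.935% in the shortest class and from 14.4% to 18.6% in exons of over 300 to 600 bases. Last exons averaged 8.40%, first exons 5.52% and internal exons 3.84%.

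The talin gene Tln1 and the zinc finger gene Zfp292 show the 2 ends of this range within a single motif. Tln1, whose protein ties integrins to actin, has 57 exons, and all of its 12 listed GGACT positions lay within 100 bases of a junction. Zfp292 has 8 exons, and its 3 GGACT positions lay in the last exon. The windows below give the 3 of Zfp292 and 3 of Tln1 (GGACT in capitals), to show that the motif itself was the same.

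Zfp292, coding sequence, chr4:34805004-34805024, minus strand: tccagataGGACTgttttaaa
Zfp292, 3′UTR, chr4:34804777-34804797, minus strand: tccctatgGGACTtgaacaga
Zfp292, 3′UTR, chr4:34803582-34803602, minus strand: tgaaatcaGGACTggaaacaa
Tln1, exon 37, chr4:43539396-43539416, minus strand: ccactctcGGACTgtctcaga
Tln1, exon 27, chr4:43544450-43544470, minus strand: tagctggtGGACTaaggtcac
Tln1, exon 36, chr4:43539754-43539774, minus strand: ctagatggGGACTtcacagaa

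The coding GGACT of Zfp292 read 88.8%, 81.6% and 82.3% in MTH-WT and 93.8%, 82.1% and 89.3% in MTH-D. Those of its 3′UTR averaged 70.3% and 67.0%. In Tln1 the GGACT of exon 37 read 4.49%, 3.33% and 3.91% in MTH-WT and 6.08%, 4.44% and 2.75% in MTH-D, the highest mean of the 12 at 4.17%. That of exon 36 averaged 0.295%, the lowest. The 12 together averaged 1.30% and none was methylated, against 74.5% for the 3 of Zfp292. Over all of its 178 positions Tln1 averaged 1.39% with 3 methylated positions. The only one of these on the chosen transcript was an AGACT in the 3′UTR, 41 bases past the last coding base, which averaged 64.02%.

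Around the end of the coding sequence the level peaked. It was 5.27% at 400 to 200 bases before the last coding base, 9.97% over the last 200 coding bases, 14.7% over the first 200 bases after it, 9.99% over the next 200, 5.31% up to 1000 bases, 3.79% up to 2000 bases and 2.30% beyond. In the first 200 bases of the 3′UTR, 212 of 625 positions, 33.9%, were methylated. The 6 samples ran from 13.2% to 16.8% there and from 2.07% to 2.68% in the last class, so the 2 classes did not overlap.

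**Figure D2:**
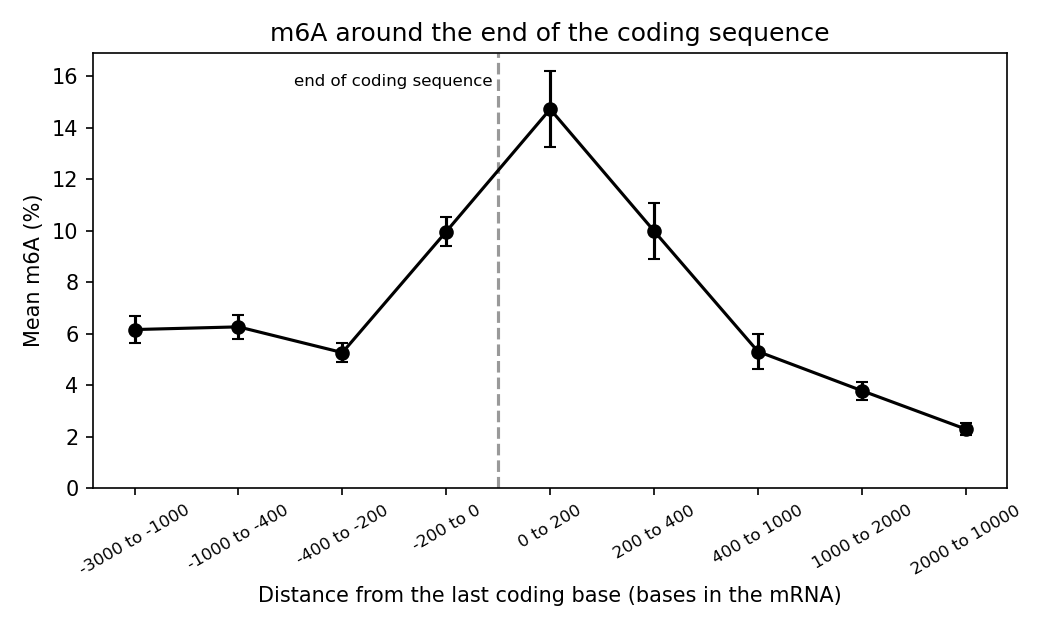
Mean m6A in percent (vertical axis) by position along the mRNA relative to the last coding base (horizontal axis, in bases, negative values in the coding sequence, classes of unequal width). Points are means of the 6 samples and bars the SD between samples; the highest point, 14.7%, is the first 200 bases of the 3′UTR and the lowest, 2.30%, lies beyond 2000 bases.

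Averaged over whole regions, 3′UTR and coding sequence lay close together. The 3′UTR averaged 6.16%, 7.16% and 5.95% in MTH-WT and 5.89%, 7.32% and 5.83% in MTH-D. Coding sequence averaged 6.87%, 7.22% and 6.52% in MTH-WT and 6.40%, 7.39% and 6.16% in MTH-D. The 3′UTR was lower by 0.376 points ± 0.268 (SD, n = 6), in 6 of 6 samples (exact sign-flip test, p = 0.03125). The median over positions turned the direction, with the 3′UTR higher by 0.337 points. The closeness rests on all listed positions. Without those holding a value of exactly 0 or 100%, 3′UTR minus coding sequence was -4.43 points. Among positions over 100 bases from a junction, coding sequence averaged 19.5% and 3′UTR 6.41%. Of all placed positions, 3046 of the 4206 coding positions and 47 of the 3755 3′UTR positions lay within that distance.

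Motif separated levels as well. The 1489 positions in GGAC motifs averaged 14.7%, 16.4% and 14.1% in MTH-WT and 14.03%, 16.6% and 13.5% in MTH-D. The 6889 positions in other DRACH motifs averaged between 4.26% and 5.23% in the same samples. The difference was 10.2 points ± 0.896 (SD, n = 6) and positive in 6 of 6 samples (exact sign-flip test, p = 0.03125). GGACT stood highest at 21.2%, followed by GAACT at 14.3%, AGACT at 13.8% and GGACA at 13.7%. The sample ranges of the last 3 overlapped. GGACC averaged 8.89% and TGACT 7.78%, and TAACC was lowest at 0.742%. These 4 motifs, picked for their means, together held 61.6% of the methylated exonic DRACH positions and 25.6% of all of them.

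The difference with distance was found within motifs. GGACT averaged 5.63% within 100 bases of a junction (210 positions) and 33.3% farther away (267 positions). GAACT went from 4.77% to 21.2% and GGACA from 3.12% to 23.4%. TAACC went from 0.535% to 0.853%. The mean was higher far from junctions in 18 of the 18 DRACH motifs.

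The 146 genes with at least 20 positions had a median gene mean of 4.74%, from 0.492% to 26.0%. In 33 genes the mean was at least 10%, in 32 it was under 2%, and 129 had a methylated position. Among 133 genes with at least 10 coding positions, the coding mean followed the share of coding positions over 100 bases from a junction (Spearman rho 0.768 across genes, which share the samples and are not replicates). The 60 genes with under 10% of such positions had a median coding mean of 1.07%, and the 28 genes with at least 50% had one of 19.2%. The ranges overlapped, from 0.336% to 9.96% and from 0.648% to 37.2%.

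**Figure D3:**
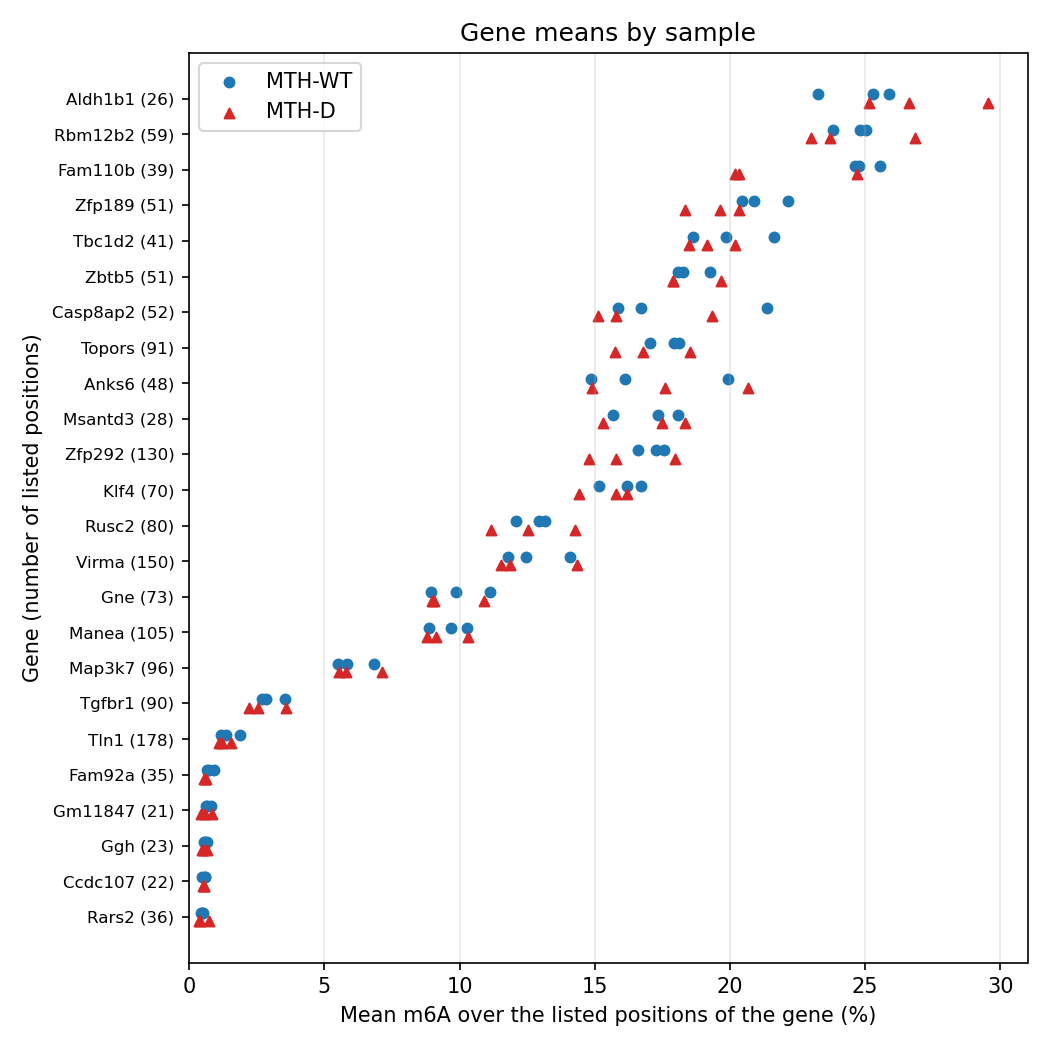
Mean m6A in percent over the listed positions of a gene (horizontal axis) for named genes of the stretch (vertical axis, with the number of positions), each point 1 sample, MTH-WT and MTH-D apart in colour and marker. Aldh1b1 sits at 23.2% to 29.5% at the upper end and Rars2 at 0.379% to 0.727% at the lower end, and the samples of the 2 groups are mixed in most genes.

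The 10 most methylated genes had between 2 and 16 exons. Genes with few exons were also found at low means, such as Rps20 (4 exons, 1.34%) and Mob3b (4 exons, 1.24%). Aldh1b1, a mitochondrial aldehyde dehydrogenase, has 2 exons and averaged 23.2%, 25.3% and 25.9% in MTH-WT and 26.6%, 29.5% and 25.2% in MTH-D, with 15 of 26 positions methylated. Rbm12b2, an RNA-binding protein gene of 4 exons, averaged 24.5% with 27 of 59 positions methylated. Fam110b averaged 24.6%, 25.5% and 24.8% in MTH-WT and 20.3%, 24.7% and 20.2% in MTH-D. Next came the zinc finger gene Zfp189 at 20.3%, the Rab GTPase activator Tbc1d2 at 19.7% and Zbtb5 at 18.5%. Casp8ap2, whose protein serves histone mRNA processing, and Topors, a ubiquitin and SUMO ligase, both averaged 17.4%. Anks6, a protein of the primary cilium, averaged 17.3% and Msantd3 17.03%. Tbc1d2 has 13 exons, Casp8ap2 11 and Anks6 16. Far from a junction lay 31 of 41 listed positions in Tbc1d2, 49 of 52 in Casp8ap2 and 15 of 48 in Anks6.

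The lowest genes were Rars2, the mitochondrial arginyl-tRNA synthetase, at 0.492%, Ccdc107 at 0.540%, Ggh, which trims folate polyglutamates, at 0.583%, the processed pseudogene Gm11847 at 0.659% and Fam92a at 0.682%. None of them had a methylated position. Reads of a processed pseudogene cannot be told from those of its parent gene where the letters agree. Rars2 has 20 exons, and 0 of its 36 positions were placed over 100 bases from a junction. Gm11847 is a single exon with no junction, and it was as low as the spliced genes.

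Methylated positions were most numerous in Zfp292 (48 of 130 positions), Virma (41 of 150), Topors (34 of 91), Rbm12b2 and Rusc2 (27 each), Klf4 (25), Zbtb5 and Zfp189 (24 each), Manea (23) and Gne (19). Virma, a subunit of the m6A writer complex itself, averaged 12.4%, 14.1% and 11.8% in MTH-WT and 11.9%, 14.4% and 11.5% in MTH-D. Klf4, a transcription factor of stem cells, averaged 16.7%, 16.2% and 15.2% in MTH-WT and 15.8%, 16.2% and 14.4% in MTH-D. In both genes the values of the groups overlapped.

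Among genes of growth signalling and transcription, 10 of the 18 listed genes had at least 20 positions, with a median of 7.14% and all with a methylated position. Map3k7, the kinase TAK1 of the TGF-β and cytokine pathways, averaged 6.12%, and Tgfbr1, the type I receptor of TGF-β, 2.90%. Lyn, a Src family kinase, averaged 10.9% with 17 methylated positions, and the zinc finger gene Zfp462 11.04% with 15. Only Tln1 of this list was under 2%.

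In liver metabolism 14 of 15 genes had enough positions, with a median of 4.44%. Abca1, the transporter that exports cholesterol, averaged 11.7% with 14 methylated positions. It has 50 exons, but only 28.1% of the DRACH adenosines of its transcript were listed. Of its 66 listed positions, 61 lay in 3′UTR and 5 in coding sequence, and 62 lay far from a junction. Gne, which starts sialic acid synthesis, averaged 9.82%, B4galt1, a galactosyltransferase of the Golgi, 7.62%, and Slc44a1, a choline transporter, 4.05%. Txn1, the cytosolic thioredoxin, averaged 1.10% and Decr1, an enzyme of unsaturated fatty acid oxidation, 1.19%.

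Protein quality control and traffic had the lowest median, 2.15% over 17 of 19 genes, of which 8 were under 2%. Erp44, a chaperone of the early secretory pathway, averaged 1.02% and Wwp1, a ubiquitin ligase, 1.24%, while Vcp, the AAA ATPase that extracts ubiquitylated proteins, averaged 1.92%. Ufl1, the UFM1 ligase, averaged 2.67%, Sdcbp, the exosome adaptor syntenin, 3.43% and Stx17, the autophagosome SNARE, 5.66%. Ubap1, an ESCRT-I subunit, was the one gene of the list over 10%, at 10.4%.

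The 11 measured genes of 13 in cell cycle and genome maintenance had a median of 2.82%. Rnf20, a ubiquitin ligase of histone H2B, averaged 2.35%, Ccnc, cyclin C of the Mediator kinase, 2.60% and Smc2, a condensin subunit, 2.82%, against 17.4% in Topors and Casp8ap2. For RNA, ribosome and mitochondrial proteins the median was 4.70% over 12 of 15 genes, from Rps20, a protein of the small ribosomal subunit, at 1.34% to Mrpl50 of the mitochondrial ribosome at 12.99%. Rngtt, the capping enzyme, averaged 5.90%, Nfx1 5.004% and Pnisr 2.52%. Of 7 genes in innate immunity and cell death 3 were measured, with Ddx58, which encodes the viral RNA sensor RIG-I, at 3.33%, Ripk2, the kinase downstream of NOD receptors, at 4.62% and Casp8ap2, which is in both lists. For the lists as for all 146 genes, these are counts and medians, and no list was tested against others.

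The stretch was slightly below the remainder of the table in each sample. Its mean was 6.53% against 6.91% over the other 558638 rows, and the difference ran from -0.401 to -0.327 points over the samples (exact sign-flip test, p = 0.03125). The direction was not stable, since positions with no value of exactly 0 or 100% differed by 1.36 points the other way.

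MTH-D and MTH-WT samples did not separate in the mean level of the stretch. The mean was 6.48%, 7.13% and 6.18% in MTH-WT samples numbered 1, 2 and 3 and 6.12%, 7.29% and 5.97% in MTH-D. The groups overlapped, at 6.60% ± 0.487 (SD, n = 3) and 6.46% ± 0.727 (SD, n = 3), and the difference of -0.139 points was smaller than either SD (p = 0.7, exact permutation test, two-sided, in which 0.1 is the smallest p possible). Over the 1223 methylated positions the mean was 38.3%, 42.8% and 37.4% in MTH-WT and 36.8%, 43.3% and 35.5% in MTH-D. That difference, -0.947 points, was within the spread too (p = 0.6, exact permutation test). Both samples numbered 2 were the highest of their group, and from the same numbers the differences were -1.46, 0.521 and -1.90 points. Without the MTH-WT sample numbered 2 the sign of both differences turned, to 0.128 and 0.703 points. It turned again to 0.108 and 0.558 points when MTH-D sample 3 was omitted, and for the mean of the stretch, to 0.0324 points, when MTH-D sample 1 was omitted.

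The lines HCIC-1 and HCIC-3 are those named for the m6A comparison in the text on these data, and if the numbers in the labels follow the line names, samples 1 and 3 alone are its counterpart. Over these 4 samples the groups did not overlap, and MTH-D was lower by 0.289 points over the stretch and by 1.68 points at methylated positions (p = 0.333 for each, exact permutation test, the smallest p that 2 samples against 2 allow).

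**Figure D4:**
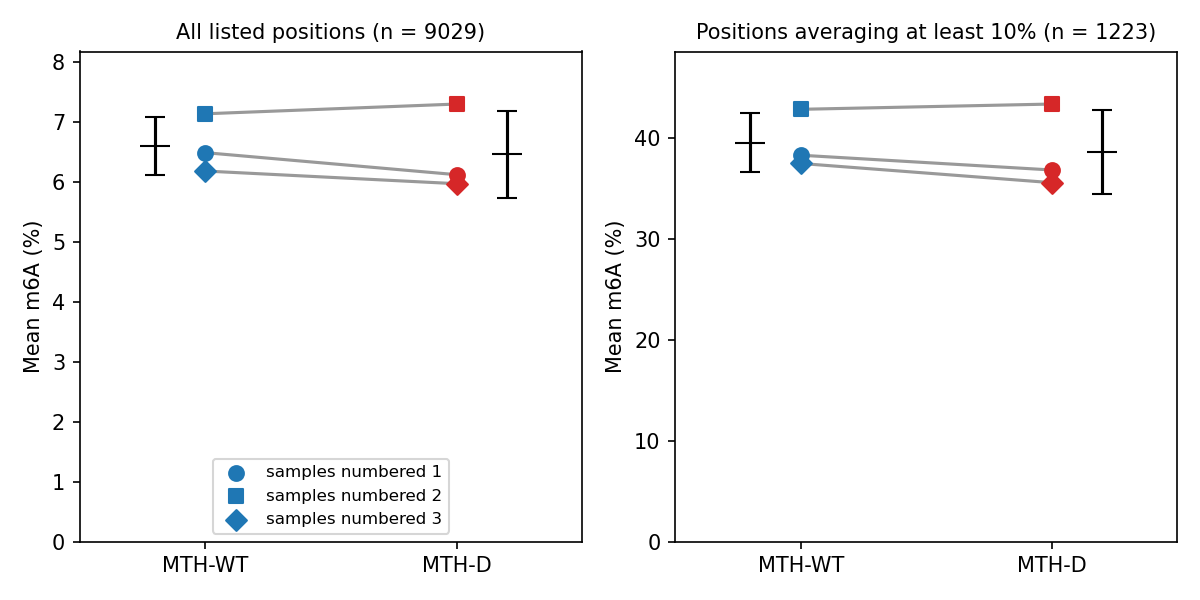
Mean m6A in percent (vertical axis, from 0) of each sample over all positions of the stretch (left panel) and over its methylated positions (right panel), with black bars for the group mean and SD. Grey lines join samples with the same number; the samples numbered 2 are the highest at the methylated positions in both groups, at 42.8% and 43.3%, and there the lines of the numbers 1 and 3 slope down.

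The same held for classes by distance, motif and level. Far positions differed by -0.213 points and near ones by -0.0609 points, GGAC positions by -0.350 points and positions in other DRACH motifs by -0.112 points. In each of these classes the difference was smaller than the SD within either group. The most methylated class, 80% and over, read 88.5%, 91.96% and 88.9% in MTH-WT and 88.2%, 92.1% and 87.7% in MTH-D, which differed by -0.441 points.

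No single position passed an adjusted p of 0.05 (limma on log2 odds over all 567667 rows, Benjamini-Hochberg), as for 0% of the rows of the whole table, with a smallest adjusted p of 0.117. At an unadjusted p under 0.05 limma counted 146 positions of the stretch as lower and 131 as higher in MTH-D, 1.62% and 1.45% of the 9029, where the whole table had 1.55% and 1.67%. On simulated data the same test recovered 0 of 200 positions changed by 1 or 2 in log2 odds and 98 of 200 changed by 4. The 200 were drawn from all 567667 rows, the others were left unchanged, and no size between 2 and 4 was tried. The simulation therefore covers few changed rows only, and does not say what could be detected if many rows changed together. Its noise was normal on the log2 odds scale, without the limit at 0% or the many values of exactly 0 in the data. The recovered shares therefore cannot be read as those of methylated positions.

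By size alone, 203 of the 1223 methylated positions were lower in MTH-D by 5 points or more, 16.6%, against 15.2% over the table, and 121 were higher, 9.89% against 9.28%. These shares lay near those of all rows. A difference with the same sign in all 3 same-numbered pairs was found at 125 of the lower positions, 10.2% against 8.39%, and at 50 of the higher ones, 4.09% against 4.48%. The groups did not overlap at 57 positions that were lower, 4.66% against 3.38%, and at 19 that were higher, 1.55% against 2.07%. With samples 1 and 3 of both groups alone, 300 positions were lower and 137 higher. Omitting MTH-D sample 2 gave 423 lower positions and omitting MTH-WT sample 3 gave 313. Omitting MTH-WT sample 2 gave 248 higher positions and omitting MTH-D sample 3 gave 204. For these counts with samples left out, no share over the whole table is given. They show how far the counts move with the samples, and are no result about the stretch.

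Windows of 3 lower and 4 higher methylated positions among those with the smallest unadjusted p are given next, with the motif in capitals. They were selected by that p, so their values describe the positions and do not test them.

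Zfp292, coding sequence, lower, chr4:34807703-34807723, minus strand: ccctcagtAAACTctatccca
Zbtb5, 3′UTR, lower, chr4:44992330-44992350, minus strand: gttgaatcAGACTtaactgta
Zfp292, coding sequence, lower, chr4:34807998-34808018, minus strand: tttgtttaTAACTgatgtaaa
Invs, coding sequence, higher, chr4:48421982-48422002, plus strand: atctccagAGACTggcgtggc
Ddx58, exon of another isoform, higher, chr4:40204368-40204388, minus strand: cccttccaGGACAtttacatt
Dnajb5, 3′UTR, higher, chr4:42957672-42957692, plus strand: ttttcaggAGACTgttcctgt
Rngtt, 3′UTR, higher, chr4:33502355-33502375, plus strand: taggatttGGACAtcttgaag

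The AAACT of Zfp292 read 24%, 17.65% and 27.8% in MTH-WT and 4.17%, 11.1% and 10.2% in MTH-D. The AGACT of Zbtb5 read 23.1%, 17.2% and 18.5% against 11.1%, 12.5% and 7.69%. The TAACT of Zfp292 read 14.3%, 17.65% and 15.2% against 10.7%, 4.35% and 6.67%. In these 3 positions every MTH-D sample lay below every MTH-WT sample. The AGACT of Invs, the ciliary protein inversin, read 72.7%, 83.3% and 76.5% in MTH-WT and 85%, 92.6% and 89.4% in MTH-D. The AGACT of Dnajb5, a J-domain co-chaperone, read 17.4%, 22% and 9.80% against 32%, 28.4% and 27.1%. The GGACA of Rngtt read 13.5%, 14.3% and 8.33% against 19.5%, 28.9% and 17.9%, and in these 3 every MTH-D sample lay above. That of Ddx58 read 9.52%, 6.12% and 5.80% against 22.6%, 23.8% and 9.41%, and its groups overlapped. The adjusted p of all 7 was 0.939 in limma with Benjamini-Hochberg adjustment.

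By gene, 75 genes with at least 5 methylated positions were compared over those positions. In 57 the mean was lower in MTH-D and in 18 it was higher, with a median difference of -0.848 points. The median came from the samples numbered 1 and 3, at -1.83 and -1.49 points with 54 and 58 of 75 genes lower, while it was 0.422 points in those numbered 2 with 30 lower. In 13 genes the difference was negative in all 3 pairs and in 4 positive. The genes share the 6 samples, so these counts are no test, and genes outside the stretch were not placed. The groups did not overlap in 2 of the 75 genes, Zfp189 and Mdn1, which were 2.67% of them, both lower in MTH-D, and in 0 genes, 0%, that were higher.

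**Figure D5:**
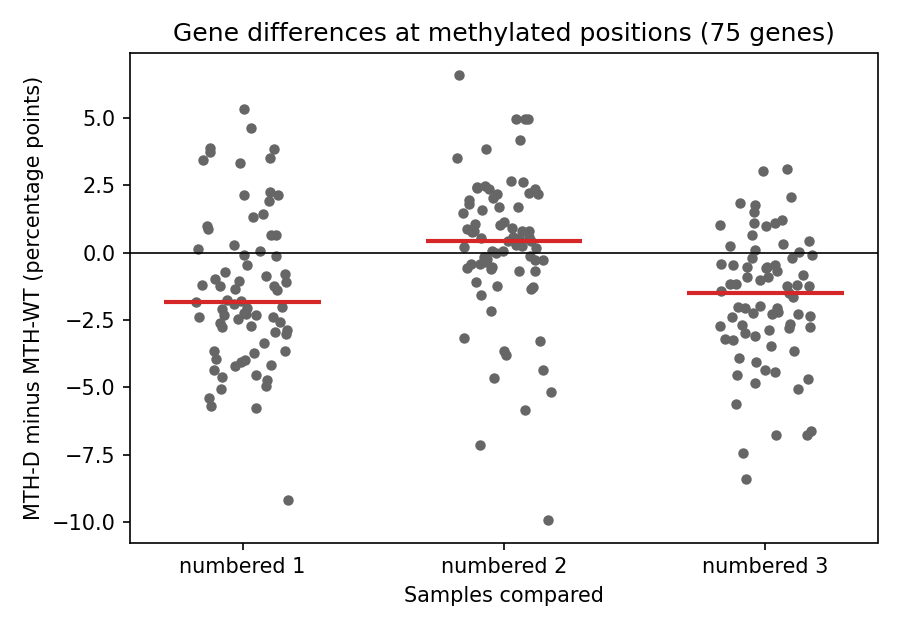
Difference of MTH-D minus MTH-WT in percentage points (vertical axis) for each of the 75 genes with at least 5 methylated positions, by the number that both samples carry (horizontal axis). Each point is 1 gene, red lines are medians and the black line at 0 marks no difference; the medians were -1.83, 0.422 and -1.49 points.

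Zfp189 read 43.5%, 40.7% and 41.8% in MTH-WT and 39.8%, 40.03% and 36.7% in MTH-D over its 24 methylated positions. Mdn1, the AAA ATPase midasin of ribosome assembly, read 23.6%, 24.7% and 21.6% against 20.8%, 21.5% and 14.8% over 8 positions. In Mdn1 the sample farthest from the others was the MTH-D sample numbered 3. The most negative differences were those of Tdrd7, a Tudor domain protein of RNA granules, at -4.77 points, Fam110b at -4.69, Casp8ap2 at -4.67, Ndufaf4, an assembly factor of respiratory complex I, at -4.33 and Mdn1 at -4.24. Tdrd7 read 35.4%, 49.8% and 32.95% in MTH-WT and 33.99%, 39.9% and 29.98% in MTH-D, so its groups overlapped and the MTH-WT sample numbered 2 stood above the others.

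The most positive differences were those of Aldh1b1 at 3.56 points, Rngtt at 2.08, Nans, the sialic acid synthase, at 1.75, Abca1 at 1.66 and Tgs1, which hypermethylates RNA caps, at 1.47. Aldh1b1 read 39.2%, 42.1% and 43.3% in MTH-WT and 44.5%, 48.7% and 42.01% in MTH-D. Tgs1 was higher in all 3 pairs, by 0.647, 2.67 and 1.09 points, with overlapping groups. Over all 75 genes, 57 were lower, with a median of -0.848 points. By list, 6 of 8 genes of growth signalling and transcription were lower, with a median of -1.70 points. For RNA, ribosome and mitochondrial proteins it was 6 of 8 with -1.41, and for cell cycle and genome maintenance 4 of 4 with -0.583. Protein quality control and traffic had 2 of 4 lower with -0.477 and liver metabolism 2 of 5 with 0.257. In innate immunity and cell death 1 of 2 was lower, with -2.18. The lists hold few genes and none was tested against the others. Within the first list Zfp292 was lower by 2.70 points, Klf4 by 1.02 and Tgfbr1 by 1.33, and Map3k7 was higher by 1.01, each with overlapping groups.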

How the data were processed

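Nanopore direct RNA sequencing of 6 HCIC samples was analysed, 3 MTH-WT and 3 MTH-D, grouped by their labels. The authors deposited 1 table of m6A values, each a fraction from 0 to 1 without coverage. The submitters' processing notes name minimap2 2.26, SAMtools and GRCm39; the modification caller and any coverage filter are not given in the sources used here. Over the stretch, 93.8% of positions fell on an exonic DRACH adenosine of GENCODE M21 on GRCm38 when counted from 0 and 0.875% when counted from 1, so 1 was added and no coordinate was converted. Rows beyond 59 Mb and on other chromosomes were not placed in genes.

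Fractions were converted to percent. Group means were set against each other by an exact permutation test (two-sided) and classes by an exact sign-flip test over the 6 samples. Positions were tested with limma 3.58.1 (R 4.3.3) on log2 odds with an offset of 1 point, over all rows, with Benjamini-Hochberg adjustment at 0.05, and the test was tested on simulated data. Deviations of same-numbered samples correlated at 0.164, 0.223 and 0.133 over rows of the whole table averaging at least 10%. Over such positions of the stretch they correlated at 0.107, 0.147 and 0.141. Between MTH-WT and MTH-D samples of different numbers, the correlations ran from -0.141 to -0.00179 over the table. Over the stretch those ran from -0.104 to -0.0215. The study calls the cells paired, so differences between same-numbered samples and a replicate block are also given. The main tests were unpaired, because the labels do not say what a number shares. Named genes were, among those with at least 20 positions, the 10 highest and 5 lowest means, the 10 with the most methylated positions, the 5 most negative and positive differences, Klf4, and up to 4 genes of each list with the most positions. Named positions, among exonic adenosines in DRACH, were the 10 highest, at most 1 a gene, and the 4 lower and 4 higher with the smallest p. Some items under these rules are not reported here. Further list members and the GGACT positions of Tln1 and Zfp292 were named after their values were seen. The members and gene lists were chosen with earlier results of these data known. Alternatives were another offset, minimum, distance limit, average and transcript choice, the replicate block, and leaving out samples. Positions far from junctions only, coding sequence or GGACT only, 4 motifs in place of GGAC, and leaving out both samples of a number were chosen after seeing the data.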

Additional observations from a re-analysis of the deposited data

How the results depend on the processing

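Coverage is not given, so a value of 0 may rest on few reads, and the number of samples limits every test. Positions far from junctions stayed above near ones and GGAC above other motifs under every alternative run, but the size moved. With each sample left out in turn it was 7.29 to 7.62 points and 9.99 to 10.4 points, by the median over positions 1.14 and 2.06 points, and without rows holding a value at 0 or 100% 12.36 and 12.39 points. With a limit of 200 bases far minus near was 4.74 points. The 3′UTR stayed below coding sequence by -0.439 to -0.309 points with each sample left out, and the stretch below the other rows by -0.387 to -0.373 points. With 5 samples no sign-flip p can go below 0.0625, so these 4 contrasts miss 0.05 there by construction. By the median over positions the 3′UTR was higher by 0.337 points and the stretch was lower by -0.0717 points (exact sign-flip test, p = 0.0625). Where rows with any value at 0 or 100% were left out, the stretch was higher by 1.36 points and 3′UTR minus coding sequence was -4.43 points. The cause of either shift was not tested.

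MTH-D minus MTH-WT ranged from -0.556 to 0.128 points for the mean of the stretch and from -3.33 to 0.703 points at methylated positions with each sample left out. Signs turned for the mean without the MTH-WT sample numbered 2 (0.128), the MTH-D sample numbered 1 (0.0324) or numbered 3 (0.108), and by the median over positions (0.0567), and at methylated positions without the MTH-WT sample numbered 2 (0.703) or the MTH-D sample numbered 3 (0.558). No position passed the adjusted p under any alternative, with a smallest adjusted p over the whole table from 0.0637 to 0.874 by limma. With the replicate block, which pairs same-numbered samples, the differences stayed -0.139 and -0.947 points (exact sign-flip test over 3 pairs, p = 0.5 each, where 0.25 is the smallest possible), and 125 lower and 50 higher positions kept 1 sign in all pairs. A minimum of 10 points left 53 lower and 22 higher positions. With each sample left out, 156 to 423 positions were lower and 81 to 248 higher. No share over the whole table is given beside the counts at 10 points or with samples left out, so they are no result about the stretch. The block changed no other call.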

Other observations

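Some positions outside the comparisons of genes averaged 10% or more too. For the intronic and intergenic ones, neither the letter nor the strand was checked. The origin recognition gene Orc3 averaged 0.898% over its exonic positions, while 82 listed positions in its introns, between 34577190 and 34591868, averaged 13.5%, 13.7% and 12.8% in MTH-WT and 13.4%, 14.01% and 13.8% in MTH-D. Of these, 18 averaged at least 10%, and the highest averaged 96.7%. The 14 intronic positions of Pnrc1 averaged 1.96% and the 13 of Invs 0.713%, with none at 10% or more. Whether the Orc3 positions belong to its pre-mRNA or to a transcript that GENCODE M21 lacks was not tested.

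A further 89 positions lay in exons shared by Akap2 and Pakap, overlapping genes for anchors of protein kinase A, and could not be assigned to either. They averaged 15.7%, from 14.2% to 17.4% over the samples, with 30 at 10% or more. The 195 intergenic positions averaged 2.96%, with 13 at 10% or more. The 196 exonic adenosines outside DRACH averaged 5.77%, with 27 at 10% or more. The highest of them, in coding sequence of Anp32b, read 100% in every sample. The motif was read from the reference transcripts, and the letters of the cells themselves were not checked. Among genes with fewer than 20 positions, Rpp25l, a subunit gene of RNase P and MRP, averaged 28.3% over 18 positions, above any gene with 20 or more, and Chd7, a chromatin remodeller, 16.5% over 19.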
